A study of Homo sapiens with 84 samples.

Results

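The cytosolic ribosomal protein genes were followed in 8 human lymphoma cell lines treated with PQR309 or the solvent DMSO. Members were chosen by symbol alone: RPL or RPS followed by a number with at most 1 trailing A, L or X, plus RPLP0, RPLP1, RPLP2 and RPSA, without pseudogenes and without the RPS6K kinases. This gave 72 genes, on 119 probes, of the 20046 gene symbols on the array. PQR309, a dual inhibitor of PI3 kinases and of mTOR, and DMSO were each given to RIVA, TMD8, SUDHL2, U2932, OCILY1, OCILY18, DOHH2 and SUDHL10 cells, with 1 array per line and treatment at 4, 8 and 12 h (24 arrays each). RIVA, TMD8, SUDHL2 and U2932 cells were also given idelalisib (an inhibitor of PI3K delta), duvelisib (PI3K delta and gamma) or ibrutinib (the kinase BTK), with 12 arrays for each. All cells were grown in vitro. The labels give no dose and do not say whether the cultures were separate, so every p-value below measures the spread between established lines, each of which is 1 cell population, and 8 lines set how precise a value can be. In bulk cultures fewer cells expressing a gene and less of its RNA per cell cannot be told apart.

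Ribosomal proteins are the protein part of the ribosome: those named RPS build the small subunit, which reads the mRNA, and those named RPL the large subunit, which joins amino acids. Their mRNAs are among the most abundant of a dividing cell. They begin with a run of pyrimidines behind a leading C, the terminal oligopyrimidine tract, through which mTOR, acting on the RNA-binding protein LARP1, controls how strongly these mRNAs are translated. An array measures the amount of mRNA and not its translation, so the comparisons below concern mRNA level.

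The sequences around the annotated transcription starts show a pyrimidine run that begins with C near the start in most members. Its first base lay 10 bases before the annotated start in RPL34 and 6 after it in RPS26. Whether the mRNAs begin with the run was not tested. The sequences are given for the 5 largest rises and the 5 falls of the main comparison, with RPS6 for comparison. Each stretch was read from RefSeq (GRCh38.p14), runs 5′ to 3′ on the gene's strand from 20 bases before to 20 bases after the annotated start, and has in capitals the longest pyrimidine run that begins with C near the start.
RPL14 (rose, chr3:40457319-40457358, + strand): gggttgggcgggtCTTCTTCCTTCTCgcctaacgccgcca
RPL13A (rose, chr19:49487588-49487627, + strand): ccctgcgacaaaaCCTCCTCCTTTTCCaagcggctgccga
RPL22 (rose, chr1:6199576-6199615, - strand): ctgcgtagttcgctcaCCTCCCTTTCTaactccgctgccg
RPL28 (rose, chr19:55385912-55385951, + strand): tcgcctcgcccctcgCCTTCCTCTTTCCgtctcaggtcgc
RPL13 (rose, chr16:89560637-89560676, + strand): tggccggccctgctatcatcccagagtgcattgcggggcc
RPL29 (fell, chr3:51995876-51995915, - strand): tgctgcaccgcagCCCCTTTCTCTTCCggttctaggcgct
RPL34 (fell, chr4:108620556-108620595, + strand): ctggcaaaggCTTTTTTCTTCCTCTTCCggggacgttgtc
RPS7 (fell, chr2:3575240-3575279, + strand): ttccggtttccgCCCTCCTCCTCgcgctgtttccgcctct
RPL36A (fell, chrX:101390991-101391030, + strand): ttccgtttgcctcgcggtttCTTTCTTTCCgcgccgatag
RPS26 (fell, chr12:56041898-56041937, + strand): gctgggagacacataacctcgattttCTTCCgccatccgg
RPS6 (not called, chr9:19380217-19380256, - strand): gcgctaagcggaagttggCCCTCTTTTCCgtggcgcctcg
A promoter window was found for 60 of the 72 genes, among them all 14 that changed in the main comparison. A run of at least 5 pyrimidines that began with C and reached to within 10 bases of the annotated start was present in 53 of the 60 (88.3%), against 13519 of all 35116 promoters in the table (38.5%). A run whose first base lay within 10 bases of the start was present in 51 (85%), against 31.4% of all promoters. Either kind was present in 8 of the 9 genes that rose and in all 5 that fell, and RPL13 was the riser without it. The run was 14 bases long in RPL13A, which rose, and 14 in RPL29, which fell. Among the risers with a run it went from 10 bases in RPS9 to 23 in RPL7A. Whether run length differed between risers and fallers was not tested. The shortest among the fallers was the 5 bases of RPS26 and the longest the 18 bases of RPL34. Other motifs were searched on both strands over the whole window, 250 bases before to 50 after the start: CCGGAAG, the core bound by factors of the ETS family, was in 21 members (35%) and in 10.3% of all promoters. AAGATGG, the core bound by YY1, was in 8 members (13.3%) and in 5.84% of all promoters, CTTTCC in 28 (46.7%) against 26.3%, and TATAAA in 5 (8.33%) against 11.5%. CTTTCC can overlap the pyrimidine run and CCGGAAG on its other strand can end it, and a match describes only the letters of the window.

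The B cell identity of the cultures was checked first. CD79A, CD79B and MS4A1 were above the detection limit on 48 of the 48 DMSO and PQR309 arrays and CD22 on 47, whereas PAX5 was above it on 3. Of 4 T cell markers, CD3D and CD3E were above the limit on 0 arrays, CD3G on 1 and CD2 on 13. Of 4 myeloid markers, CD14 was above it on 23, LYZ on 13, and CSF1R and ITGAM on 1 each. COL1A1 was above it on 9 arrays and PECAM1 and EPCAM on 22 each, EPCAM reaching a log2 level of 10.36. The limit, a log2 level of 6.73, comes from the 3 arrays whose detection p-values were deposited.

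Ribosomal protein mRNAs gave some of the strongest signals on the array. Of the 72 genes, 70 passed the filter that kept the brighter 50% of probes, which began at a mean log2 level of 6.65. The probes of 63 of these 70 lay among the brightest 5%, 56 had a mean level above 11 and 40 a mean level above 13. The filter removed RPL10 (mean 6.60, above the detection limit on 1 of 48 arrays) and RPL3L, a paralogue of RPL3 known from muscle (mean 6.58, above the limit on 0 of 48). The other probe of RPL10 had a mean of 6.51, and whether its probes report the RNA of RPL10 was not tested. RPL10L, a paralogue of RPL10 known from testis, passed it at 6.67 but was above the limit on 12 arrays, so its differences lie near background. Signals of different probes depend on the probe as well as on the RNA, so levels below are set against each other only within a probe. Processed pseudogenes nearly identical to these genes are common in the genome, and which transcripts each probe binds was not tested.

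The first comparison asked what PQR309 did to each gene's level, taking for each line the mean difference from DMSO over 4, 8 and 12 h. Of the 70 genes, 9 rose and 5 fell at an adjusted p under 0.05 (limma's moderated test on 8 line differences, Benjamini-Hochberg over 12440 genes). Rises covered 12.9% of the members, beside 12.5% of all genes tested, and falls 7.14%, beside 14%. The share that rose was thus near the background and the share that fell was below it. At an unadjusted p under 0.05 the count was 24 of 70, beside 4793 of all 12440 genes. The effect was above 0 in 52 of 70, with a median of 0.05 on the log2 scale, where the median over all genes was -0.00011. Line by line the median over the members ran from -0.026 in U2932 cells to 0.089 in SUDHL10 cells and was above 0 in 7 of 8 lines. Most members thus moved little, and those that passed the test went both ways.

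The risers were RPL14, RPL13A, RPL22, RPL28, RPL13, RPS9, RPS23, RPL7A and RPL4. RPL14, a protein of the large subunit, had levels of 8.57 to 10.87 (median 9.75) over the lines in PQR309, against 8.38 to 10.39 (median 9.42) in DMSO. The lines differed far more from each other than the treatments did, so the groups overlapped, but within a line PQR309 was higher in 8 of 8. The increase was 0.36 ± 0.05 (SE, n = 8 lines, adjusted p = 0.00111), from 0.18 to 0.56 by line. RPL13A, known beyond the ribosome for silencing inflammatory mRNAs in human myeloid cells, ranged from 11.86 to 13.46 (median 13.12) in PQR309, against 11.52 to 13.26 (median 12.65) in DMSO. It rose by 0.33 ± 0.07 (adjusted p = 0.00897), least in DOHH2 cells (0.08) and most in RIVA cells (0.78). RPL22, a large-subunit protein that also binds small RNAs of Epstein-Barr virus, had 10.04 to 11.95 (median 11.11) in PQR309, against 9.93 to 11.77 (median 10.81) in DMSO. It rose by 0.30 ± 0.06 (adjusted p = 0.0042) and was higher in 8 of 8 lines. RPL28, a large-subunit protein found in animals and not in budding yeast, had 7.35 to 9.0 (median 8.15) in PQR309, against 7.26 to 8.68 (median 7.95) in DMSO, and rose by 0.24 ± 0.04 (adjusted p = 0.00284), in 8 of 8 lines. The remaining risers moved less, from 0.13 ± 0.04 for RPL4, which lines the tunnel through which the new chain leaves, to 0.23 ± 0.05 for RPL13. RPS9, at the channel where mRNA enters the small subunit, rose by 0.22 ± 0.05 (adjusted p = 0.00807). RPS23, at the decoding site, rose by 0.19 ± 0.05 (adjusted p = 0.0162). RPS23 was lower with PQR309 in SUDHL2 cells (-0.03), and RPL4 in SUDHL10 cells (-0.09). RPL7A, whose introns carry small nucleolar RNAs, rose by 0.13 ± 0.03 (adjusted p = 0.013).

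The fallers were RPL29, RPS7, RPL34, RPL36A and RPS26. RPL29, a small basic protein of the large subunit, had 7.51 to 10.50 (median 9.01) in PQR309, against 7.94 to 10.69 (median 9.81) in DMSO. It fell by 0.62 on the log2 scale (SE 0.11, adjusted p = 0.00264), the largest change in the family, and was lower in 8 of 8 lines, from -0.93 in OCILY1 cells to -0.03 in SUDHL2 cells. RPS7, a small-subunit protein that can bind MDM2, had 8.63 to 11.36 (median 10.07) in PQR309, against 8.98 to 11.31 (median 10.52) in DMSO. Its change was -0.36 ± 0.07 (adjusted p = 0.00413), lower in 7 of 8 lines, and SUDHL2 cells stood at 0.05. RPL34, a large-subunit protein, had 9.33 to 11.21 (median 10.21) in PQR309, against 9.53 to 11.27 (median 10.57) in DMSO. It changed by -0.35 ± 0.07 (adjusted p = 0.00384), from -0.63 in U2932 cells to -0.06 in SUDHL2 cells. RPL36A, which sits near the exit site for tRNA, had 8.05 to 9.66 (median 8.67) in PQR309, against 8.14 to 9.63 (median 9.08) in DMSO. Its change was -0.32 ± 0.09 (adjusted p = 0.0194). It was lower in 6 lines, most in U2932 cells (-0.65), and SUDHL2 and SUDHL10 cells stood at 0.03 and 0.04. RPS26, at the channel where mRNA leaves the small subunit and mutated in some families with Diamond-Blackfan anaemia, had 9.99 to 12.76 (median 11.31) in PQR309, against 10.43 to 12.79 (median 11.50) in DMSO. It changed by -0.20 ± 0.05 (adjusted p = 0.0208) and, unlike the other fallers, was lowest in SUDHL2 cells (-0.44). SUDHL2 was the line with the smallest fall for RPL29 and RPL34 and with a value above 0 for RPS7 and RPL36A.

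**Figure D1:**
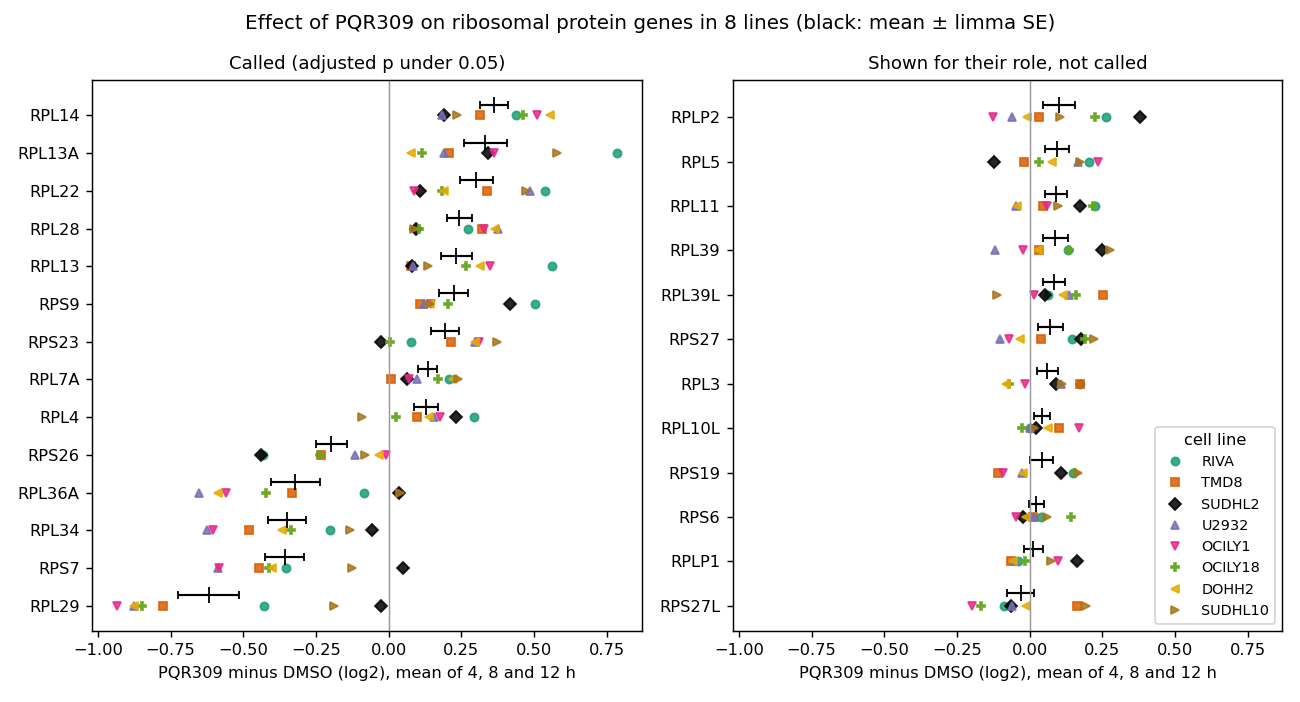
Difference between PQR309 and DMSO on the log2 scale (horizontal axis, mean of 4, 8 and 12 h) for the 14 called genes on the left and 12 genes shown for their role on the right. Each symbol is 1 of 8 cell lines, and the black mark is the mean with its limma SE. RPL29 lies furthest to the left at -0.62, and RPL14 furthest to the right at 0.36.

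Of the 14 calls, RPL13A, RPL22 and RPL29 kept their direction and their call under each of the 17 alternatives that kept lines paired. In the raw table, which gave 6 lines, 4 of the 14 were called, and RPL14 stood at 0.11 (adjusted p = 0.608). Averaging the probes of a gene gave 12 rises and 9 falls. It ended the calls of RPL34 (-0.05, adjusted p = 0.342) and RPL13 (0.01, adjusted p = 0.946). RPL4 was the least stable, with its call kept in 7 of the 17.

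Several members had been listed for their role, with earlier results of these data known, and did not pass in the mean of 3 times. RPS6, the substrate of the S6 kinases downstream of mTOR, had 13.82 to 14.15 (median 13.91) in PQR309, against 13.79 to 14.14 (median 13.89) in DMSO, a difference of 0.02 ± 0.03 (adjusted p = 0.565). RPL5 and RPL11, which carry the smallest RNA of the large subunit and bind MDM2 when ribosome building fails, both stood at 0.09 ± 0.04 (adjusted p = 0.124 for RPL5 and 0.0972 for RPL11). RPS19, the gene most often mutated in Diamond-Blackfan anaemia, stood at 0.04 ± 0.04 (adjusted p = 0.488). The stalk proteins RPLP1 and RPLP2, which bring elongation factors to the ribosome, stood at 0.01 ± 0.03 (adjusted p = 0.813) and 0.10 ± 0.05 (adjusted p = 0.209). RPL3, near the site of peptide bond formation, stood at 0.06 ± 0.04 (adjusted p = 0.249). A second bright probe of RPL11 stood at 0.16 (adjusted p = 0.0223) and one of RPL3 at 0.15 (adjusted p = 0.0221) when each probe was fitted on its own, and RPL5 at 8 h and RPS19 and RPLP2 at 12 h passed, as given below.

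Paralogue pairs were set side by side. RPL39 had 13.59 to 14.07 (median 13.71) in PQR309, against 13.52 to 13.82 (median 13.68) in DMSO, and stood at 0.09 ± 0.04 (adjusted p = 0.168). Its paralogue RPL39L, known from male germ cells, stood at 0.08 ± 0.04 (adjusted p = 0.128). RPS27 was at 0.07 ± 0.04 (adjusted p = 0.252), whereas its paralogue RPS27L stood at -0.03 ± 0.05 (adjusted p = 0.678). RPL10L stood at 0.04 ± 0.03 (adjusted p = 0.281) and its partner RPL10 was not tested. Just outside the threshold lay RPS21 (-0.11, adjusted p = 0.0559), RPS2 (0.10, adjusted p = 0.0588) and RPS3 (0.15, adjusted p = 0.0663), beside RPL4 just inside it (0.13, adjusted p = 0.0413).

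The calls lay among members of lower and middle signal. Among the 14 members with a mean level under 11, 5 rose and 4 fell, and their median absolute effect was 0.24. Among the 16 between 11 and 13, 4 rose and 1 fell (median absolute effect 0.08). Among the 40 above 13, 0 were called in either direction, and the median absolute effect was 0.05. Other genes of the same bins were called in 25.9%, 45.3% and 25.5% of cases, the last among 55 genes. Whether the highest signals are compressed on this array was not tested.

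The 3 times were then compared one by one. At 4 h, 0 members rose and 4 fell (5.71%), where 7.88% of all genes rose and 9.45% fell. The unadjusted count was 24 of 70, beside 3880 of all 12440 genes. RPL23, a large-subunit protein that can bind MDM2, was 11.46 to 12.42 (median 11.77) in PQR309, against 11.81 to 12.99 (median 12.16) in DMSO. It changed by -0.37 ± 0.06 (adjusted p = 0.00257) and was lower in 8 of 8 lines. RPL29 changed by -0.25 ± 0.08 (adjusted p = 0.0476), RPS13 by -0.17 ± 0.05 (adjusted p = 0.043) and RPL36A by -0.16 ± 0.05 (adjusted p = 0.0417). The count at 4 h depended on the lines: it was 1 without RIVA, without OCILY18 or without SUDHL10, and 9 without DOHH2. The median over members at this time ran from -0.036 in OCILY1 cells to 0.174 in SUDHL2 cells.

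At 8 h, 7 members rose (10%, beside 7.49% of all genes) and 4 fell (5.71%, beside 8.49%). The largest changes were those of RPL29 (-0.74 ± 0.10, adjusted p = 0.00154), RPL34 (-0.51 ± 0.06, adjusted p = 0.000859), RPL14 (0.40 ± 0.08, adjusted p = 0.0092) and RPL22 (0.39 ± 0.06, adjusted p = 0.00278). RPS7 and RPL36A also fell, while RPL13A, RPS23, RPL5, RPL23A and RPL7 rose, with changes of 0.19 for RPL7 to 0.28 for RPL13A. RPL5 was higher in 8 of 8 lines (0.20 ± 0.05, adjusted p = 0.0125). Without OCILY1 the count was 6.

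At 12 h, 11 members rose (15.7%, beside 10.5% of all genes) and 7 fell (10%, beside 10%). RPL29 reached -0.87 ± 0.17 (adjusted p = 0.00654), RPS7 -0.63 ± 0.10 (adjusted p = 0.00367) and RPL34 -0.57 ± 0.08 (adjusted p = 0.00283), while RPL14 reached 0.53 ± 0.10 (adjusted p = 0.00591). The other fallers were RPL36A, RPS26, RPLP2 (-0.19 ± 0.04, adjusted p = 0.0135) and RPS19 (-0.14 ± 0.04, adjusted p = 0.046), and the last 2 were lower in 8 of 8 lines. The other risers ranged from 0.14 for RPL7A to 0.43 for RPL22. Among them RPL13A, RPL22, RPL13, RPL28 (0.42) and RPL37 (0.22) were higher in 8 of 8 lines. Without U2932 the count was 11.

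**Figure D2:**
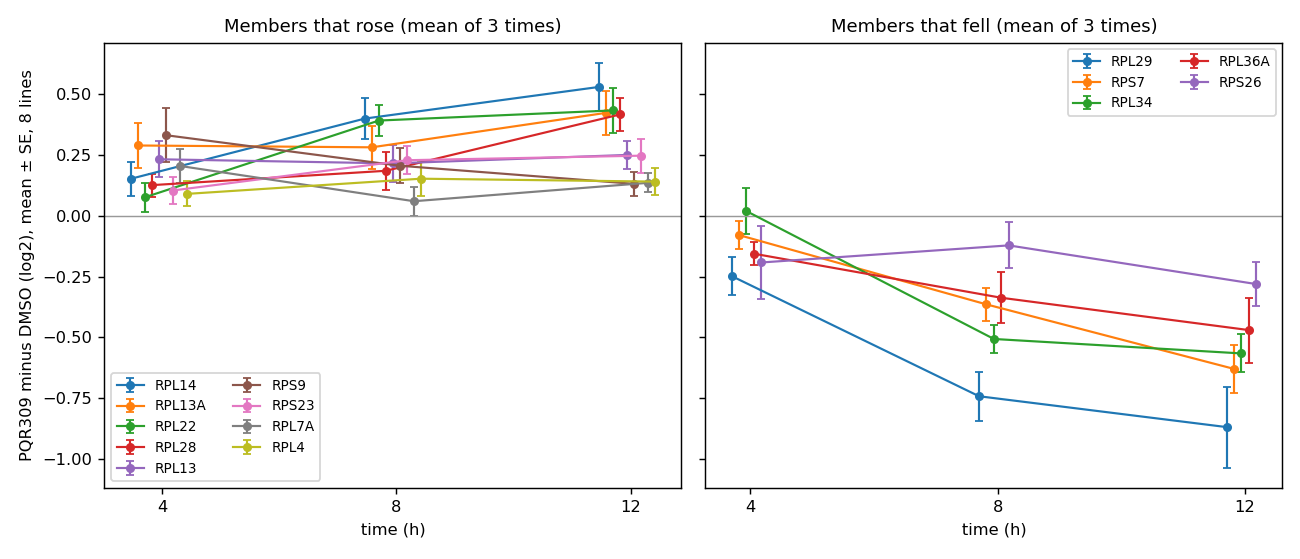
Difference between PQR309 and DMSO (vertical axis, log2, mean of 8 lines with SE) at 4, 8 and 12 h (horizontal axis) for the 9 genes that rose, left, and the 5 that fell, right, in the mean of the 3 times. RPL29 goes down to -0.87 and RPL34 starts at 0.02 at 4 h before reaching -0.57 at 12 h.

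Whether the effect itself differed between 12 and 4 h was tested on the difference of the differences within each line. The effect shifted upward for 5 members (7.14%, beside 4.87% of all genes) and downward for 8 (11.4%, beside 5.51%). At an unadjusted p under 0.05 there were 31 of 70, beside 3122 of all 12440 genes. RPL34 was 9.59 to 11.44 (median 10.35) in PQR309 at 4 h, against 9.50 to 10.98 (median 10.36) in DMSO. At 12 h it was 9.19 to 11.22 (median 10.07) in PQR309, against 9.58 to 11.38 (median 10.76) in DMSO. On this brighter probe the effect shifted by -0.58 ± 0.07 (adjusted p = 0.00122), lower in 8 of 8 lines. The other kept probe of RPL34, fitted on its own, had effects of 0.19 at 4 h and 0.31 at 12 h. Its shift was 0.13 (adjusted p = 0.426). RPL23 shifted upward, by 0.62 ± 0.08 (adjusted p = 0.00152). At 12 h RPL23 had 11.70 to 12.87 (median 12.23) in PQR309, against 11.65 to 12.69 (median 11.93) in DMSO. RPL29 shifted by -0.62 ± 0.13 (adjusted p = 0.0137) and RPL8, at the site of peptide bond formation, by -0.61 ± 0.17 (adjusted p = 0.0404). The shift of RPL8 ran from -1.87 to 0.04 by line. The downward shifts also took in RPLP2 (-0.59), RPS7 (-0.55), RPL41, RPS29 and RPS10, and the upward ones RPL7 (0.45), RPL22 (0.36), RPL23A and RPL39L. In the raw table, with 6 lines, the count was 0, and the smallest adjusted p among the members was 0.365. Without single lines the count ran from 8 (without OCILY18 or without SUDHL10) to 16 (without OCILY1).

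The same shifts were split into the change within each treatment, since the DMSO arrays also differed between 4 and 12 h. Between 4 and 12 h in DMSO, 6 members rose (8.57%, beside 4.14% of all genes) and 2 fell (2.86%, beside 3.5%). RPLP2 rose by 0.49 ± 0.10 (adjusted p = 0.0183), RPL41 by 0.44 ± 0.09 (adjusted p = 0.0175), RPS27 by 0.36 ± 0.09 (adjusted p = 0.0441) and RPL6 by 0.28 ± 0.07 (adjusted p = 0.0394). The lines differed widely: RPLP2 ran from 0.0011 in OCILY1 cells to 0.90 in OCILY18 cells, and RPL41 from 0.13 to 0.80 in the same lines. RPS10 and RPL11 rose by 0.21 and 0.20, and RPL23 and RPS13 changed by -0.25 and -0.22. In PQR309 over the same interval, RPL23 (0.36 ± 0.05, adjusted p = 0.0166) and RPL23A (0.20 ± 0.04, adjusted p = 0.0441) rose and RPL34 fell (-0.33 ± 0.06, adjusted p = 0.0257). These are 2.86% of the members, beside 1.41% of all genes, and 1.43%, beside 1.11%.

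For RPLP2 the median was 14.14 in PQR309 at 4 h, against 13.73 in DMSO, and 14.13 in PQR309 at 12 h, against 14.27 in DMSO. Its difference between 12 and 4 h was -0.10 in PQR309 and 0.49 in DMSO, and that of RPL41 was -0.03 in PQR309 and 0.44 in DMSO, with the DMSO value past the threshold for both. RPS29 stood at -0.08 in PQR309 and 0.39 in DMSO (adjusted p = 0.363 in PQR309 and 0.0823 in DMSO). RPL34 passed in PQR309 at -0.33 and stood at 0.26 in DMSO (adjusted p = 0.084). RPS7, whose shift passed, did not pass in either treatment, with -0.37 in PQR309 (adjusted p = 0.102) and 0.18 in DMSO (adjusted p = 0.276). RPL39L stood at 0.23 in PQR309 (adjusted p = 0.11) and -0.01 in DMSO (adjusted p = 0.958). The DMSO count rested on RIVA, without which it was 1, and with an intensity trend in the variance model it was 0 in each treatment, as it was in the raw table. The PQR309 count was 1 without RIVA, U2932, OCILY18 or SUDHL10.

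**Figure D3:**
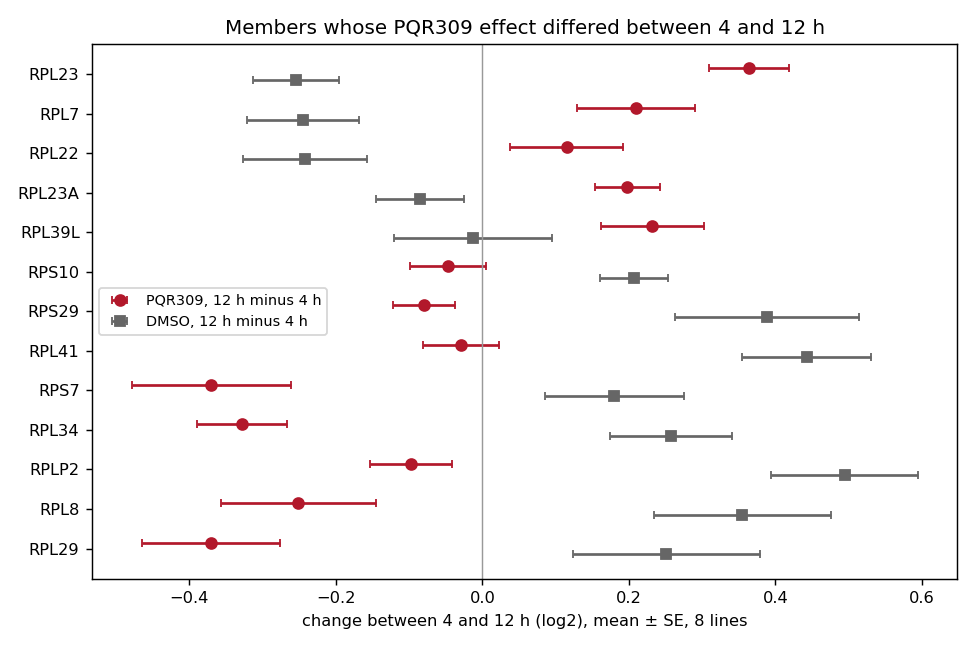
Change between 4 and 12 h (horizontal axis, log2, mean of 8 lines with SE) in PQR309, circles, and in DMSO, squares, for the 13 genes whose PQR309 effect differed between the times. RPLP2 and RPL41 sit near 0 in PQR309 and above 0.4 in DMSO, and RPL23 has 0.36 in PQR309 and -0.25 in DMSO.

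The effect of PQR309 was also compared between the 4 lines given every inhibitor and the 4 given PQR309 only. None of the 70 genes passed in limma, with 0% of all genes called. At an unadjusted p under 0.05 there were 543 of all 12440 genes and 4 members. Those were RPL7 (-0.26), RPL3 (0.15), RPS26 (-0.22) and RPL8 (-0.27), with the smallest adjusted p at 0.998.

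Because several probes were available for many members, each probe of the 8-line table was fitted on its own. Over all 23615 kept probes, 2384 were called up and 2837 down. Among 32 members with more than 1 kept probe, 4 had every probe called in the same direction and 13 had some but not all called. In 14 none was called, and 1 had calls in both directions. The 4 widest spreads were those of RPL34, RPS29, RPS24 and RPL6. RPL34 was the gene with both: the brighter probe changed by -0.35 ± 0.06 (adjusted p = 0.0043) and the other rose by 0.26 ± 0.04 (adjusted p = 0.00134). RPS29, a zinc-binding protein of the small subunit, had 3 bright probes at 0.06, 0.03 and 0.05 and a dim one, of mean level 8.68, at 0.59 ± 0.08 (adjusted p = 0.00124), higher in 8 of 8 lines. RPS24, mutated in some families with Diamond-Blackfan anaemia, had a bright probe at 0.07 and a dimmer one at -0.48 ± 0.10 (adjusted p = 0.00636). RPL6 had 0.06 and -0.00058 for its bright probes and -0.47 ± 0.08 (adjusted p = 0.00306) for the dimmest. The probes of RPL29 gave -0.62 and -0.63, those of RPS7 -0.36 and -0.41, those of RPS9 0.22 and 0.24 and those of RPS26 -0.20 and -0.28. For RPL14 the other probe stood at 0.06, and for RPL13 at -0.22 (adjusted p = 0.0858). Whether such probes detect different transcripts of the gene, or a pseudogene, was not tested.

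**Figure D4:**
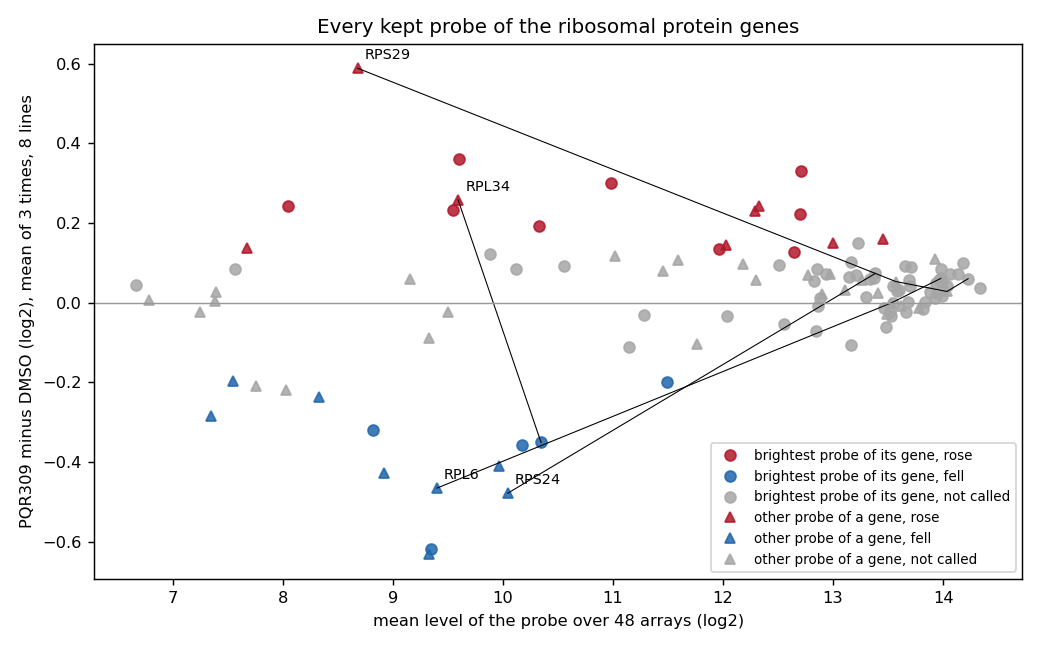
Difference between PQR309 and DMSO (vertical axis, log2, mean of 3 times and 8 lines) against the mean level of the probe over 48 arrays (horizontal axis, log2) for every kept probe of the members. Circles are the brightest probe of a gene and triangles its other probes, red where the probe rose, blue where it fell and grey where it was not called, and lines join the probes of the 4 genes of widest spread. RPS29 reaches 0.59 on its dim probe while its bright ones lie near 0.

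The inhibitors were compared in RIVA, TMD8, SUDHL2 and U2932 cells on the raw arrays, where all treatments share 1 scale. RPL14, RPL17, RPL29 and RPS3A are read there by another probe than in the 8 lines, since the brightest probe differed. The 4 inhibitors were set against the same DMSO arrays, so their differences from DMSO are not independent, and each SE pools the spread of all treatments (n = 4 lines, adjusted over 12557 genes). With PQR309, 4 members rose and 3 fell (10%), where 13.5% of all genes were called in either direction. With idelalisib 0 rose and 1 fell (1.43%, beside 4.7%). With duvelisib none was called in limma (0.0159% of all genes), and with ibrutinib none (3.01% of all genes). At an unadjusted p under 0.05 there were 7 of 70 with duvelisib, beside 1835 of all 12557 genes. With ibrutinib there were 13, beside 2830.

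RPL22 had 11.53, 11.56, 10.36 and 11.45 with PQR309 in RIVA, TMD8, SUDHL2 and U2932 cells, against 11.16, 11.24, 10.12 and 11.12 with DMSO. PQR309 was higher in each of the 4 lines, although the groups overlapped because SUDHL2 cells were low in both. The rise was 0.32 ± 0.06 (adjusted p = 0.00279). The other inhibitors stood at 0.22 for duvelisib (adjusted p = 0.108), 0.17 for ibrutinib (adjusted p = 0.105) and, as the line values show, mixed for idelalisib: 0.16, 0.12, -0.19 and 0.07. The difference between PQR309 and idelalisib was 0.28 ± 0.06 (adjusted p = 0.0847), and that between PQR309 and duvelisib 0.10 ± 0.06 (adjusted p = 0.792).

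RPL29 had 7.55, 9.53, 10.16 and 9.70 with PQR309 in the same lines, against 8.19, 9.97, 10.24 and 10.51 with DMSO. It was lower with PQR309 in each line, by -0.64 in RIVA, -0.45 in TMD8, -0.08 in SUDHL2 and -0.82 in U2932 cells (mean -0.50 ± 0.11, adjusted p = 0.00669). Idelalisib gave 7.71, 9.31, 10.35 and 10.11, a mean difference of -0.36 (adjusted p = 0.0589), with SUDHL2 cells at 0.12. Duvelisib gave -0.26 (adjusted p = 0.25). With ibrutinib the differences were -0.29, -0.08, 0.09 and -0.23. PQR309 minus ibrutinib was -0.37 ± 0.11 (adjusted p = 0.203).

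RPS7 was the member that passed with idelalisib. It had 8.72, 10.05, 11.50 and 11.15 with idelalisib and 8.90, 10.35, 11.56 and 10.87 with PQR309, against 9.37, 10.51, 11.59 and 11.54 with DMSO. The change was -0.40 ± 0.10 with idelalisib (adjusted p = 0.0335) and -0.33 ± 0.10 with PQR309 (adjusted p = 0.0346). SUDHL2 cells again showed the smallest differences, -0.09 with idelalisib and -0.03 with PQR309. RPL34 (-0.34, adjusted p = 0.00842), RPL13A (0.29, adjusted p = 0.0121), RPL28 (0.29, adjusted p = 0.0285) and RPL37 (0.19, adjusted p = 0.0383) completed the calls with PQR309. RPL13A and RPL28 stood at 0.26 each with duvelisib (adjusted p = 0.112 for RPL13A and 0.159 for RPL28). RPL14, read here by another probe, stood at -0.26 with idelalisib (adjusted p = 0.0882), -0.25 with duvelisib (adjusted p = 0.176) and -0.11 with PQR309. Fitted on its own in 8 lines, that probe stood at 0.06 (adjusted p = 0.42). The probe of RPL14 that rose in 8 lines stood at -0.0026 with PQR309 on the raw arrays. The lowest p-values with ibrutinib belonged to RPL7A (0.27, adjusted p = 0.089), RPS23 (0.24, adjusted p = 0.0893) and RPL37 (0.17, adjusted p = 0.105).

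Set directly against each other, PQR309 and the other inhibitors gave no call among the members in limma. At an unadjusted p under 0.05 there were 4 of 70 members against idelalisib, beside 1208 of all 12557 genes. Against duvelisib there were 2, beside 876, and against ibrutinib 9, beside 1418. After adjustment 0.0876%, 0% and 0.0557% of all genes were called. Beside RPL22 and RPL29, the lowest p-values were those of RPL13 (0.25, adjusted p = 0.234) and RPS27L (-0.13, adjusted p = 0.487) against idelalisib. Against duvelisib they were those of RPL34 (-0.17, adjusted p = 0.675), RPL29 (-0.23, adjusted p = 0.694) and RPL12 (0.10, adjusted p = 0.737). Against ibrutinib RPS9 (0.24, adjusted p = 0.231) and RPL36A (-0.25, adjusted p = 0.277) followed RPL29. These p-values do not show that the compounds act alike. The PQR309 count of 7 was 1 without U2932, 4 without the RIVA arrays of 8 and 12 h, and 0 when arrays were centred on their medians in place of quantile normalization. The call with idelalisib was lost without RIVA, without TMD8 or without U2932, without the RIVA arrays of 8 and 12 h, and with median centring.

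**Figure D5:**
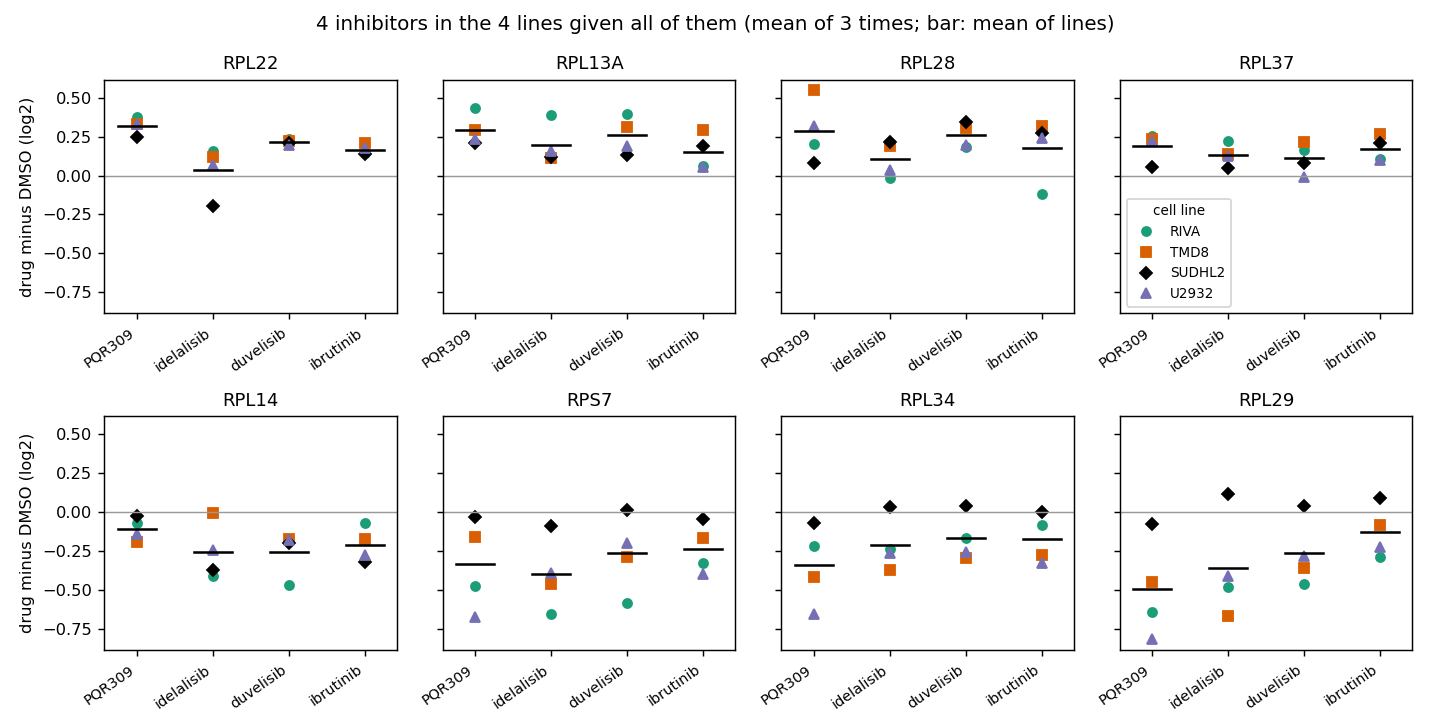
Difference from DMSO (vertical axis, log2) of each inhibitor in the 4 lines for the 7 members called there and RPL14. Each symbol is 1 line, and the bar is the mean of the lines. RPL22 lies above 0 in the 4 lines with PQR309, duvelisib and ibrutinib, and RPL29 lies below 0 in the 4 lines with PQR309.

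For PQR309 and DMSO in these 4 lines the raw arrays order the probes otherwise than the normalized table does, so the members' differences are given from both tables. With the same probe, 48 of 70 had the same sign in the tables, and of the 14 genes called in 8 lines 13 had. RPL29 was -0.53 in the normalized and -0.52 in the raw table, RPS7 -0.33 in both, RPL34 -0.34 in both and RPL22 0.37 and 0.32. RPS9, RPL13 and RPL4 kept their sign but were smaller in the raw table, at 0.11, 0.09 and 0.10. In the normalized table RPS9 ran from 0.11 to 0.50 by line, RPL13 from 0.08 to 0.56 and RPL4 from 0.10 to 0.29. RPL14 was the exception in sign. It stood at 0.28 in the normalized table, from 0.18 to 0.44 by line, and at -0.0026 in the raw table, from -0.42 to 0.56. Whether the tables come from the same hybridisations or the same RNA is not stated in the labels.

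Genes that work with the ribosomal proteins were followed on lists, over the mean of 3 times in 8 lines. Translation factors and other genes with a terminal oligopyrimidine tract moved upward where they passed: 7 of 17 tested rose and 0 fell, with a median of 0.06. EIF3H, a subunit of an initiation factor, rose by 0.30 ± 0.05 (adjusted p = 0.00168). EIF4B, which helps unwind mRNA at initiation, rose by 0.24 ± 0.04 (adjusted p = 0.00269), and EEF2, which moves the ribosome along mRNA, by 0.23 ± 0.05 (adjusted p = 0.00554). Of 10 host RNAs of small nucleolar RNAs, 5 rose and 2 fell: EPB41L4A-AS1 stood at 0.41 ± 0.06 (adjusted p = 0.00114) and SNHG6 at 0.23 ± 0.03 (adjusted p = 0.00138), and SNHG15 at -0.53 ± 0.12 (adjusted p = 0.0095). In the 4 lines on the raw arrays PQR309 gave 0 rises and 3 falls on this list, with a median of 0.10. The oligopyrimidine list had 2 rises and 1 fall there, and 13.5% of all genes were called in either direction. At 12 h in 8 lines the oligopyrimidine list had 6 rises and 1 fall, where 10.5% of all genes rose and 10% fell.

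The dedicated chaperones that carry new ribosomal proteins to the nucleolus were lower where they passed. Of 7 tested, 0 rose and 5 fell, with a median of -0.35. GRWD1, whose yeast counterpart escorts the yeast RPL3 protein, changed by -0.38 ± 0.05 (adjusted p = 0.00113), BCCIP, whose yeast counterpart escorts the yeast RPL23 protein, by -0.41 ± 0.06 (adjusted p = 0.00164), and PRMT3, a partner of RPS2, by -0.32 ± 0.06 (adjusted p = 0.00476). The partners themselves stood at 0.06 for RPL3, -0.03 for RPL23 and 0.10 for RPS2, and did not pass. Of 8 regulators of ribosomal protein translation, 0 rose and 2 fell: EIF4E, the cap-binding protein, changed by -0.26 ± 0.03 (adjusted p = 0.000723) and LARP4, which protects mRNA tails, by -0.41 ± 0.05 (adjusted p = 0.000752). MTOR itself stood at -0.10 ± 0.05 (adjusted p = 0.186).

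Of 5 ribosomal proteins named outside the rule, 1 rose and 2 fell. RPL7L1 stood at 0.12 ± 0.04 (adjusted p = 0.0294), RPL26L1 at -0.19 ± 0.05 (adjusted p = 0.0203) and FAU, the precursor of a small-subunit protein, at -0.11 ± 0.03 (adjusted p = 0.0295). Of 16 pseudogene symbols tested, 3 rose and 1 fell. RPL13AP6 (0.24 ± 0.04, adjusted p = 0.00303) and RPL13AP3 (0.14 ± 0.04, adjusted p = 0.0401) had the sign of RPL13A, and RPS26P11 (-0.27 ± 0.07, adjusted p = 0.0222) that of RPS26. These lists were chosen with earlier results of the data known, and their counts are read against the 12.5% of all genes that rose and the 14% that fell.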

How the data were processed

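RNA from 8 lymphoma lines was hybridised to 84 Illumina arrays. The submitters' processing notes name GenomeStudio without a version. The deposited normalized table holds log2 values that the authors normalized in separate sets: 48 arrays of PQR309 and DMSO, with a median of 6.64, and 36 of idelalisib, duvelisib and ibrutinib, with a median of 6.66. The deposited raw table holds probe intensity for 81 arrays, and a detection p-value in its place for 3 arrays of OCILY1 (PQR309 at 4 h, PQR309 and DMSO at 8 h). The deposited series matrix equals the normalized table (largest difference 0). In 54 raw arrays the probes had the same order as in the normalized table, and in 27 they did not (rank correlation at most 0.910). These 27 came from PQR309 and DMSO in RIVA, TMD8, SUDHL2 and U2932, and from DMSO in DOHH2. The 99th percentile of raw intensity ran from 1332 to 9572, lowest for SUDHL2 with DMSO at 8 h and highest for SUDHL10 with DMSO at 4 h. 0 per-sample columns were left unused.

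Of 47231 probes, 30113 had 1 gene symbol, 8 several and 17110 none. The brighter 50% of probes were kept and the brightest stood for its gene. For the 8-line comparisons this was set once over the 48 arrays, although the plan had named the arrays of each comparison, and the plan's version was run as an alternative. For the 4 lines, 60 raw arrays were corrected with normexp (offset 50), quantile-normalized and log2-transformed. In 8 lines the differences within a line were tested with limma 3.58.1 in R 4.3.3, and in 4 lines the means per line and treatment were fitted with the line as a block. P-values were adjusted by Benjamini-Hochberg over all genes, with a threshold of 0.05. The script was tested on simulated data. Lines pair the samples, since each line's deviations under PQR309 and DMSO correlated at 0.925 to 0.954. The alternatives were other filters, probe rules, centring, background correction, variance models, the raw table, no block and leaving out lines or arrays.

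Genes were named by rule: the 10 largest rises and falls called in the mean of 3 times, the 4 largest at each time and shift, the 3 of smallest p for each inhibitor and list, the 4 widest probe spreads, and genes fixed by role. Other called members are named to complete a count. The members and lists were chosen with earlier results of these data known. Protein sequences were not used here.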

Additional observations from a re-analysis of the deposited data

Results flagged for a closer look

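For 13 members the effect of PQR309 at 12 h differed from that at 4 h by the test of the difference itself (limma, adjusted p under 0.05). The shift was -0.58 for RPL34, -0.55 for RPS7, -0.62 for RPL29, -0.59 for RPLP2, -0.61 for RPL8, -0.47 for RPL41, -0.47 for RPS29 and -0.25 for RPS10. It was 0.62 for RPL23, 0.36 for RPL22, 0.45 for RPL7, 0.28 for RPL23A and 0.24 for RPL39L. These values are from the brightest probe of each gene, and the other kept probe of RPL34 had a shift of 0.13 (limma, adjusted p = 0.426). RPS29, RPL41, RPL39L, RPL8, RPS7 and RPL29 also have other kept probes, whose shifts are not given here. RPL23, RPL22 and RPL39L shifted upward in 8 of 8 lines, and RPL34, RPS7 and RPL41 downward in 8 of 8. Between 4 and 12 h RPLP2 stood at -0.10 in PQR309 and rose by 0.49 in DMSO. In the raw table, with 6 lines, the shift of RPLP2 was -0.11 (limma, adjusted p = 0.881).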

How the results depend on the processing

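Over all comparisons, 876 of the values recomputed for called members kept direction and call, 370 lost the call and 6 changed sign; of the counts, 148 stayed within 1.5 times the reported count and 53 did not. Lines pair the samples, and with no replicate block the count of called members was 0 in each 8-line comparison and for PQR309 and idelalisib in 4 lines. In the raw table, with 6 to 8 lines, the count was 4 for the mean of 3 times, 0 at 4 h, 1 at 8 h, 6 at 12 h and 0 for the shift and for the change with time in each treatment. With an intensity trend the change with time gave 0 in DMSO and 0 in PQR309. Without a filter on dim probes the DMSO change with time gave 5. In 4 lines idelalisib gave 2 with probes averaged and 2 without the SUDHL2 arrays of 8 h, and 0 without the RIVA arrays of 8 and 12 h, where PQR309 gave 4. Median centring gave 0 for PQR309 and for idelalisib, and moved the median of all genes for PQR309 minus duvelisib to -0.10. Signs changed for RPL13 at 12 h with probes averaged (-0.12), and in the raw table for RPS19 at 12 h (0.0372), the shifts of RPS10 (0.0064) and RPL8 (0.0055), and the DMSO change of RPS10 (-0.0423) and RPL11 (-0.0581). The cause was not tested. Leaving out 1 line gave 13 to 16 calls for the mean, 1 to 9 at 4 h, 6 to 13 at 8 h, 11 to 19 at 12 h, 8 to 16 for the shift, 1 to 10 for DMSO and 1 to 3 for PQR309 with time, and in 4 lines 1 to 9 for PQR309 and 0 to 2 for idelalisib. The counts of members under the alternatives stand without the share of all genes called in the same setting. They therefore do not separate a loss of calls over the whole array from one in the members. The alternatives on the filter by comparison, on single probes and on the SUDHL2 and RIVA arrays were chosen after seeing the data. Members near the detection limit, RPL10L among them, have little signal over background, and 1 array per line and time limits the precision of each value.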
